A study of Mus musculus with 9 samples.

Results

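The genes described here encode the nuclear subunits of oxidative phosphorylation, the machinery of the inner mitochondrial membrane that passes electrons from nutrients to oxygen and makes ATP. They were taken by symbol (Nduf with a, b, c, s or v and a number, Sdha to Sdhd, Uqcr, Cox4 to Cox8, and Atp5) from the probe sets that named exactly 1 gene. This gave 81 of the 18193 genes tested, with 33 in complex I, 4 in complex II, 8 in complex III, 18 in complex IV and 17 in complex V. Complex IV includes Ndufa4, now counted as its subunit, and the paralog Ndufa4l2. The remaining gene, Cox7a2l, encodes a factor that joins complexes III and IV and is no subunit of either. Where a gene had several probe sets, it was read from the one whose mean over the 9 arrays was highest. Cox7b was not analysed here, and Ndufa11 and Ndufs6 stood only on probe sets that named a second gene.

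The arrays held 3 samples each of neurospheres, cultured cells and tissue of the auditory nerve, taken from CBA/CaJ mice of both sexes aged 8 to 12 weeks. Tissue was dissected nerve with no treatment. Cultured cells were dissociated nerve cells grown with 10% serum and B27 for 5 to 7 days, until the plates were full. Neurospheres, which are clusters of dividing cells, came from such cultures after 12 more days without serum in medium with EGF (20 ng/ml), FGF (10 ng/ml) and heparin (2 µg/ml). Nothing in the labels tells if a group's samples were separate animals or cultures, and the p-values therefore cover only sample-to-sample spread, which could be technical.

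In the respiratory chain, complex I takes electrons from NADH and complex II from succinate, complex III passes them on to cytochrome c, and complex IV hands them to oxygen. The proton gradient built on the way drives complex V, the ATP synthase. Most subunits come from nuclear genes and a few from mitochondrial DNA, and some complex IV subunits exist as isoforms that differ between tissues. Neurons are known for a high demand for ATP from this pathway.

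Values are log2 signals after RMA, and a difference of 1 is a change by a factor of 2. A gene passed where its limma p, adjusted by Benjamini-Hochberg across the 18193 genes, was under 0.05 and its fold change over 1.5. The median signal of an array was between 6.15 and 6.27. Of the 81 members, 72 had a group mean above 9 and 43 a group mean above 12, and the highest member value was 14.05 on arrays whose maxima were 14.24 to 14.52. A loss of proportion near that ceiling was not tested. The 3 groups differed in the balance of 3′ and 5′ probe signals and in cell type markers. The 3′ minus 5′ signal of actin was 0.70 ± 0.15 in neurospheres, 0.36 ± 0.04 in cultured cells and 2.71 ± 0.35 in tissue (log2; SD, n = 3 each), and that of Gapdh was 0.41, 0.19 and 1.98. Of 10 neuron markers, 9 fell in neurospheres and 10 in cultured cells against tissue, with summed log2 levels of 66.1 to 67.6, 63.2 to 65.3 and 116 to 120. All 5 markers of myelinating Schwann cells fell and all 5 of dividing cells rose in both. All 6 oligodendrocyte markers, all 5 astrocyte markers and 5 of 6 macrophage markers also fell in both. Of 7 fibroblast markers, 6 rose and none fell in neurospheres, and 4 rose and 1 fell in cultured cells. Over all genes, 21.7% rose and 21.0% fell in neurospheres against tissue, and 20.4% rose and 22.0% fell in cultured cells. The part of this balance or of these markers in the results on the members was not tested, and fewer cells of a type and less RNA per cell cannot be told apart in such bulk samples.

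With the arrays as deposited, subunit genes were mostly lower in both grown groups than in tissue. In neurospheres against tissue, 28 of the 81 members fell and 3 rose, where 21.0% of all genes fell and 21.7% rose, and the median difference was -0.43 against 0.05 over all genes. In cultured cells against tissue, 26 fell and 1 rose, where 22.0% of all genes fell and 20.4% rose, with medians of -0.43 and -0.01. Both comparisons used the same 3 tissue samples, so neither stands as a repeat of the other. With arrays centred on the hybridisation controls, 12 fell and 4 rose in cultured cells. The shares over all genes above belong to the fit without that centring, and none is given with it. That centring moved the median gene by 0.22. The differences were small for most members. Without the fold threshold, 53 members passed as lower in neurospheres and 58 in cultured cells, where 5286 and 5936 of the 18193 genes did. Only 10 and 9 members fell by more than 2-fold, where 2602 and 2687 of all genes did. Above 2-fold, the members therefore fell no more often than all genes. Among members with a mean above 9 in at least 1 group, the median was -0.45 in neurospheres and -0.44 in cultured cells. It was 0.12 and 0.10 over the 7079 genes chosen in the same way. This filter uses the group means that are compared, and a gene high in tissue alone, such as Cox8b, also enters.

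The grown groups differed little from each other. In neurospheres against cultured cells, 2 members rose and none fell, where 9.0% of all genes rose and 8.91% fell, with differences between -0.32 and 0.67 and a median of 0.04 (all genes 0.05). At the adjusted p alone (limma), 7 members rose and 2 fell, where 3488 of the 18193 genes rose and 2879 fell. An F test over the 3 groups (limma, adjusted p under 0.05) was passed by 65 of the 81 members, among them 31 of 33 in complex I, 2 of 4 in complex II, 5 of 8 in complex III, 13 of 18 in complex IV and 13 of 17 in complex V. Of all genes, 71.5% passed it.

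**Figure D1:**
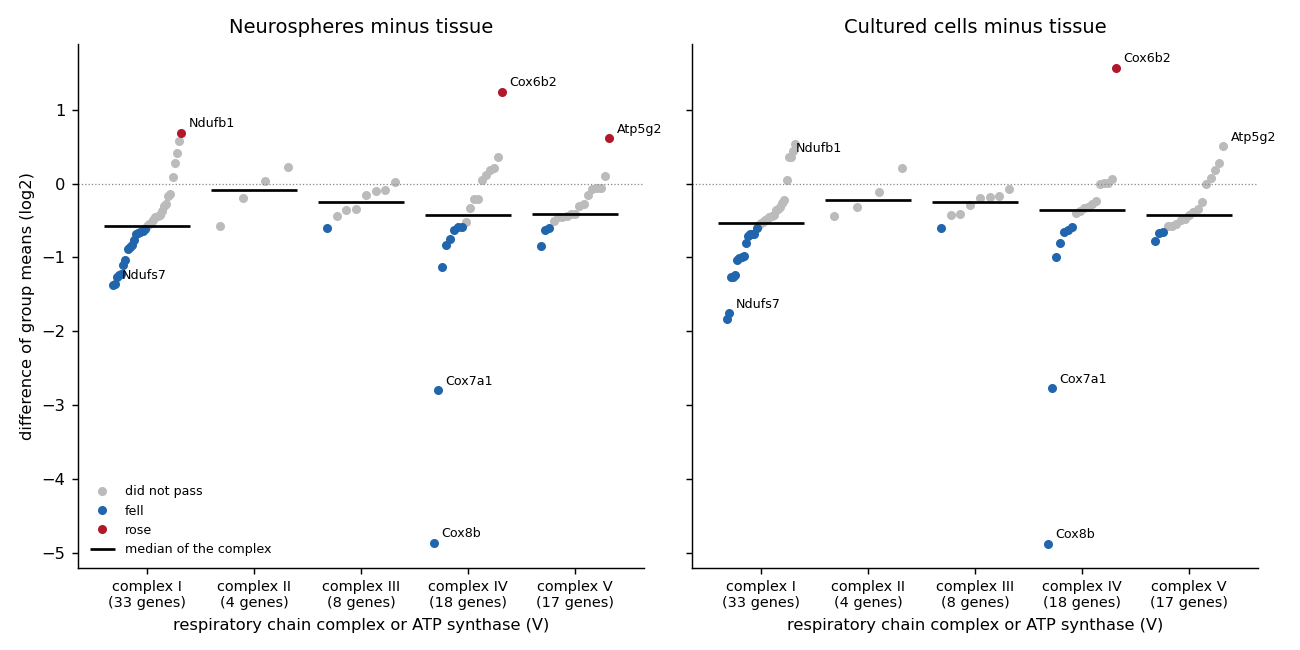
Difference of group means (log2) for each member, by complex, in neurospheres minus tissue (left) and cultured cells minus tissue (right). Blue points fell, red points rose, grey points did not pass, and bars are the medians of the complexes; complex I has the lowest median in both panels (-0.57 and -0.53), and Cox8b and Cox7a1 of complex IV lie far below all other members.

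The medians differed between the complexes. Complex I had a median difference of -0.57 in neurospheres and -0.53 in cultured cells, with 16 and 15 of its 33 members lower. Complex IV had medians of -0.42 and -0.35, with 8 and 7 of 18 lower. Complex V had medians of -0.41 and -0.43, and 3 of 17 (17.6%) fell in each group, near the shares over all genes (21.0% and 22.0%). In complex III, 1 of 8 fell in each on the probe sets used, with medians of -0.25 and -0.24. None of the 4 genes of complex II passed in either comparison, and their medians were -0.08 and -0.22. The order of the complexes was not tested, and with arrays centred on the hybridisation controls the medians of complexes II and III in cultured cells were 0.003 and -0.023.

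Single arrays gave the same picture. The median over complex I genes, each set against its own tissue mean, was -0.51, -0.60 and -0.57 in the 3 neurosphere samples, -0.52, -0.47 and -0.62 in the 3 cultured cell samples, and -0.06 to 0.04 in tissue samples. For complex II it was -0.14 to -0.05 on neurosphere arrays, -0.29 to -0.13 on cultured cell arrays and -0.05 to 0.02 on tissue arrays. In the other complexes all neurosphere and cultured cell arrays lay clearly below all tissue arrays, while in complex II the highest neurosphere array (-0.05) and the lowest tissue array (-0.05) nearly met. Within complex IV the cultured cell arrays lay between -0.38 and -0.37, and the neurosphere arrays between -0.49 and -0.37.

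**Figure D2:**
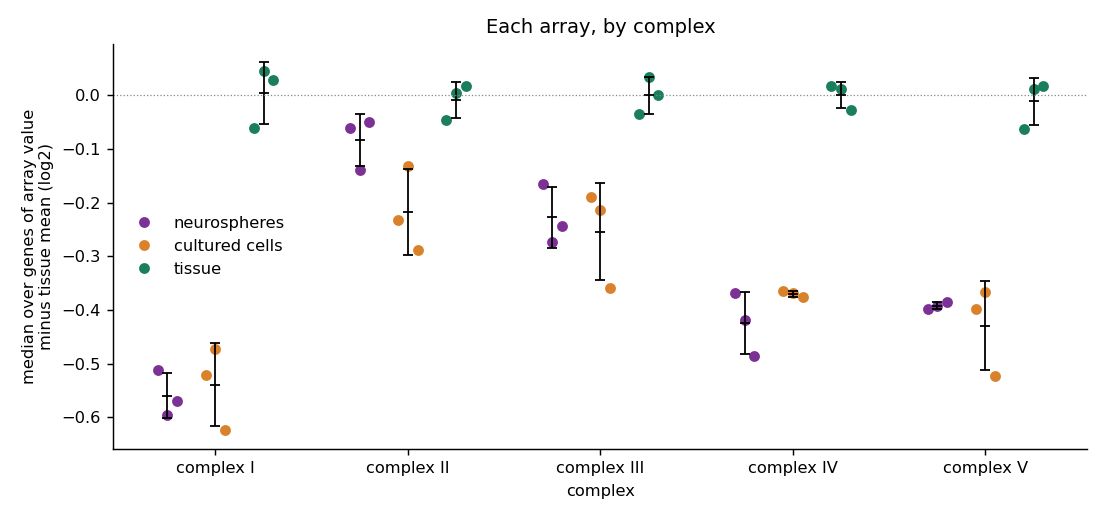
Median over the genes of each complex of the array value minus the tissue mean of the gene (log2), with 1 point per array and the mean and SD of each group (n = 3). Neurosphere and cultured cell arrays lie lowest in complex I, between -0.62 and -0.47, and the neurosphere arrays nearly meet the tissue arrays in complex II.

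Within complex I, large falls were seen in core subunits of the arm that reaches into the matrix, where NADH is oxidised. Ndufs7, an iron-sulfur subunit close to the ubiquinone site, was at 11.06, 10.97 and 11.00 in neurospheres, at 10.60, 10.72 and 10.54 in cultured cells, and at 12.26, 12.51 and 12.35 in tissue. Every grown sample lay more than 1 log2 unit below every tissue sample. The difference was -1.36 ± 0.09 in neurospheres (SE; limma adjusted p = 2.57e-06) and -1.76 ± 0.10 in cultured cells (limma adjusted p = 1.65e-07). Ndufv1, the flavoprotein that takes the electrons from NADH, was at 11.02, 10.86 and 10.88 in neurospheres, 10.95, 11.00 and 10.81 in cultured cells, and 12.29, 12.10 and 12.07 in tissue. The neurosphere and cultured cell values overlapped each other and not those of tissue. Its differences from tissue were -1.23 ± 0.10 in both (SE; limma adjusted p = 6.26e-06 and 2.03e-06).

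Ndufs1, the largest iron-sulfur subunit, was at 10.52 to 10.54 in neurospheres, 10.60 to 10.68 in cultured cells and 11.58 to 11.65 in tissue. It fell by 1.10 in neurospheres and by 0.99 in cultured cells. Ndufs8, another iron-sulfur subunit, fell by 0.86 and 0.97. The other core subunits moved less and did not pass. Ndufs3 had differences of -0.38 and -0.48, and Ndufv2, the iron-sulfur partner of Ndufv1, -0.27 and -0.32. Of the 9 Ndufs and Ndufv genes, 4 fell in each comparison, and of the 24 Ndufa, Ndufb and Ndufc genes, which encode accessory subunits, 12 and 11 fell.

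The accessory subunits included the lowest difference in complex I in neurospheres. Ndufa5 was at 10.69, 10.66 and 10.72 in neurospheres, 10.84, 11.00 and 10.58 in cultured cells, and 12.06, 12.18 and 11.97 in tissue. Its groups did not overlap with tissue, and the differences were -1.38 ± 0.09 and -1.26 ± 0.12 (SE; limma adjusted p = 1.5e-06 and 8.04e-06). Ndufa12 fell by 1.23 and 1.04, Ndufb8 by 1.04 and 0.80, and Ndufc2 by 0.88 and 1.01. All bright probe sets of Ndufa12 are marked as possibly shared with other genes. Ndufb4 fell by 1.27 and 1.83, but on a probe set at only 4.62 in neurospheres, 4.06 in cultured cells and 5.89 in tissue. The brighter probe sets for Ndufb4 also name Ndufb4b and Ndufb4c and were not used for it.

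A few complex I genes went the other way. Ndufb1 was at 8.13, 7.99 and 8.03 in neurospheres, 7.81, 7.75 and 7.58 in cultured cells, and 7.44, 7.33 and 7.32 in tissue. All 3 groups were separate, with neurospheres highest. It rose by 0.69 ± 0.09 in neurospheres (SE; limma adjusted p = 0.000125), and its difference of 0.35 in cultured cells did not pass. Ndufa7 (0.57 and 0.44), Ndufa2 (0.41 and 0.36) and Ndufs4 (0.28 and 0.54) were above tissue without passing the fold threshold, and these genes were singled out after their values were seen. Ndufs4 went below tissue, at -0.37 in neurospheres and -0.04 in cultured cells, when its 4 probe sets were averaged. Ndufa7 had 5 probe sets, and each of them gave positive differences in both comparisons, from 0.28 to 0.59 in neurospheres and from 0.14 to 0.44 in cultured cells.

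Ndufa6, an accessory subunit, was 1 of the 2 members that passed between the grown groups. It was at 11.18, 11.01 and 10.92 in neurospheres, 10.44, 10.50 and 10.31 in cultured cells, and 11.60, 11.73 and 11.73 in tissue. The groups were separate, with cultured cells lowest and tissue highest. Neurospheres were above cultured cells by 0.62 ± 0.10 (SE; limma adjusted p = 0.00156), and against tissue neurospheres fell by 0.65 and cultured cells by 1.27.

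In complex II, Sdha, the flavoprotein that oxidises succinate, was at 11.28, 11.33 and 11.26 in neurospheres, 11.50, 11.41 and 11.37 in cultured cells, and 11.84, 11.84 and 11.90 in tissue. The groups did not overlap, and the differences from tissue were -0.57 ± 0.08 and -0.43 ± 0.08 (SE; limma adjusted p = 0.000234 and 0.000932). Both were short of the fold threshold. The iron-sulfur subunit Sdhb had differences of -0.20 and -0.31. The membrane anchors were near tissue or above it, with 0.03 and -0.12 for Sdhc and 0.22 in both for Sdhd.

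In complex III, Uqcrc2, one of the large core proteins, was the gene that passed on the probe set used. It fell by 0.60 in both grown groups (limma adjusted p = 0.000333 and 0.00017), with 11.47 to 11.56 in neurospheres, 11.45 to 11.56 in cultured cells and 12.02 to 12.19 in tissue. Its partner Uqcrc1 had differences of -0.44 and -0.17, and Uqcrfs1, the Rieske iron-sulfur protein of electron transfer, -0.11 and -0.19. On the probe set used, the fall of Uqcrc2 was close to the fold threshold. In neurospheres it was lost without neurosphere replicate 2 (-0.57), tissue replicate 2 (-0.58) or tissue replicate 3 (-0.56), and in cultured cells without cultured cell replicate 3 or tissue replicate 3 (-0.57 each). Uqcrh was at 0.02 and -0.30 from tissue, Uqcrb at -0.36 and -0.43, and Uqcr10 at -0.34 and -0.41. Other bright probe sets of these genes gave other sizes. They had -1.16 and -1.05 for Uqcrc2, -0.14 and -0.39 for Uqcrh, and 0.04 and 0.16 for Uqcrb. Those of Uqcr10 had -0.76 and -0.71 in neurospheres and -1.59 and -1.26 in cultured cells.

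Complex IV held the largest differences of all members, in isoform genes. Cox8b, the isoform of subunit 8 known from heart, skeletal muscle and brown fat, was at 5.28, 4.94 and 4.80 in neurospheres, 4.99, 4.99 and 4.99 in cultured cells, and 9.78, 9.94 and 9.87 in tissue. The tissue samples stood far above all others. It was lower by 29.0-fold in neurospheres (-4.86 ± 0.13, SE; limma adjusted p = 7.75e-09) and by 29.3-fold in cultured cells (-4.87 ± 0.08, SE; limma adjusted p = 1.08e-10). Cox7a1, the heart and muscle isoform of subunit 7a, was at 5.24, 4.78 and 4.61 in neurospheres, 4.90, 4.92 and 4.87 in cultured cells, and 7.55, 7.85 and 7.61 in tissue. Its differences were -2.79 ± 0.16 and -2.77 ± 0.10 (SE; limma adjusted p = 8.54e-07 and 7.29e-09). The neurosphere and cultured cell values of both genes overlapped and lay below the array median (6.15 to 6.27). No detection calls were used, so where those values are background the folds are lower bounds.

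Other genes known from muscle were read beside these isoforms. Cox6a2, the muscle isoform of subunit 6a, was at 6.28, 6.26 and 6.57 in neurospheres, 6.43, 6.35 and 6.17 in cultured cells, and 6.48, 6.30 and 6.20 in tissue, with groups that overlapped and differences of 0.04 and -0.01. Of 8 skeletal muscle markers, 7 had group means of 3.66 to 6.17 in neurospheres, 3.68 to 6.27 in cultured cells and 3.54 to 5.76 in tissue. Among them, Ckm, the muscle creatine kinase, averaged 6.17, 5.99 and 5.76, and Acta1, skeletal actin, averaged 5.04, 6.27 and 4.87. The other marker was Pvalb, a calcium-binding protein that neurons also make, which averaged 5.56 in neurospheres, 5.38 in cultured cells and 13.22 in tissue. Of these 8, 1 fell (Pvalb) and none rose in neurospheres, and 1 fell (Pvalb) and 1 rose (Acta1) in cultured cells. Beside this and the marker counts that follow, 21.7% of all genes rose and 21.0% fell in neurospheres. In cultured cells these shares were 20.4% and 22.0%. The 5 heart markers averaged 2.96 to 5.40, 3.06 to 5.98 and 3.84 to 4.57. Of them, Myh6, a heart myosin, fell in both by 0.88 and 0.78, and Tnnt2, a heart troponin, fell by 0.60 in cultured cells. In the other direction, 1 rose by 0.96 in neurospheres and 2 rose by up to 1.41 in cultured cells. The shares of heart markers that rose and fell in neurospheres (20.0% each) were near those over all genes. Of 6 markers of smooth muscle and pericytes, 3 fell and none rose in neurospheres and 2 fell and 4 rose in cultured cells, with summed log2 levels of 42.0 to 45.0 in neurospheres, 54.0 to 55.5 in cultured cells and 49.2 to 51.1 in tissue. Myh11, the smooth muscle myosin, fell by 2.14 and 2.21, and the largest rise of this list was 3.44 in cultured cells. Ucp1, which defines brown fat, averaged 4.04, 4.14 and 4.15. Of the 4 brown fat markers, 1 (Dio2) rose in both, by 1.08 and 2.68, and none fell. The other 3 averaged 4.04 to 5.06 in neurospheres, 4.14 to 5.02 in cultured cells and 4.15 to 5.46 in tissue. Summed over the 8 skeletal muscle markers, log2 levels were 41.0 to 41.5 in neurospheres, 41.4 to 42.2 in cultured cells and 46.8 to 49.3 in tissue, with Pvalb included. The part of muscle or other cells in the levels of Cox8b and Cox7a1 was not tested.

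The widely expressed partners of Cox8b and Cox7a1 had smaller differences, and the partner of Cox6a2 a larger one than Cox6a2. Cox7a2 fell by 0.83 in neurospheres and by 0.65 in cultured cells, Cox6a1 fell by 0.59 in neurospheres with -0.41 in cultured cells, and Cox8a did not pass, with -0.21 and -0.28. The fall of Cox6a1 was lost without neurosphere replicate 2 (-0.57) or tissue replicate 1 (-0.55). The opposite case was Cox6b2, the testis isoform of subunit 6b. It was at 9.29, 8.67 and 8.41 in neurospheres, 9.15, 9.15 and 9.03 in cultured cells, and 7.75, 7.42 and 7.47 in tissue. All grown samples were above all tissue samples, and neurospheres varied more than cultured cells. Cox6b2 rose by 1.24 ± 0.21 in neurospheres and by 1.57 ± 0.10 in cultured cells (SE; limma adjusted p = 0.000735 and 6.59e-07), while its partner Cox6b1 had -0.52 in neurospheres and fell by 0.59 in cultured cells. The fall of Cox6b1 was lost without cultured cell replicate 3 (-0.53), tissue replicate 1 (-0.58) or tissue replicate 2 (-0.58). No value here says which isoform was the more abundant, since levels of different probe sets cannot be set against each other.

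**Figure D3:**
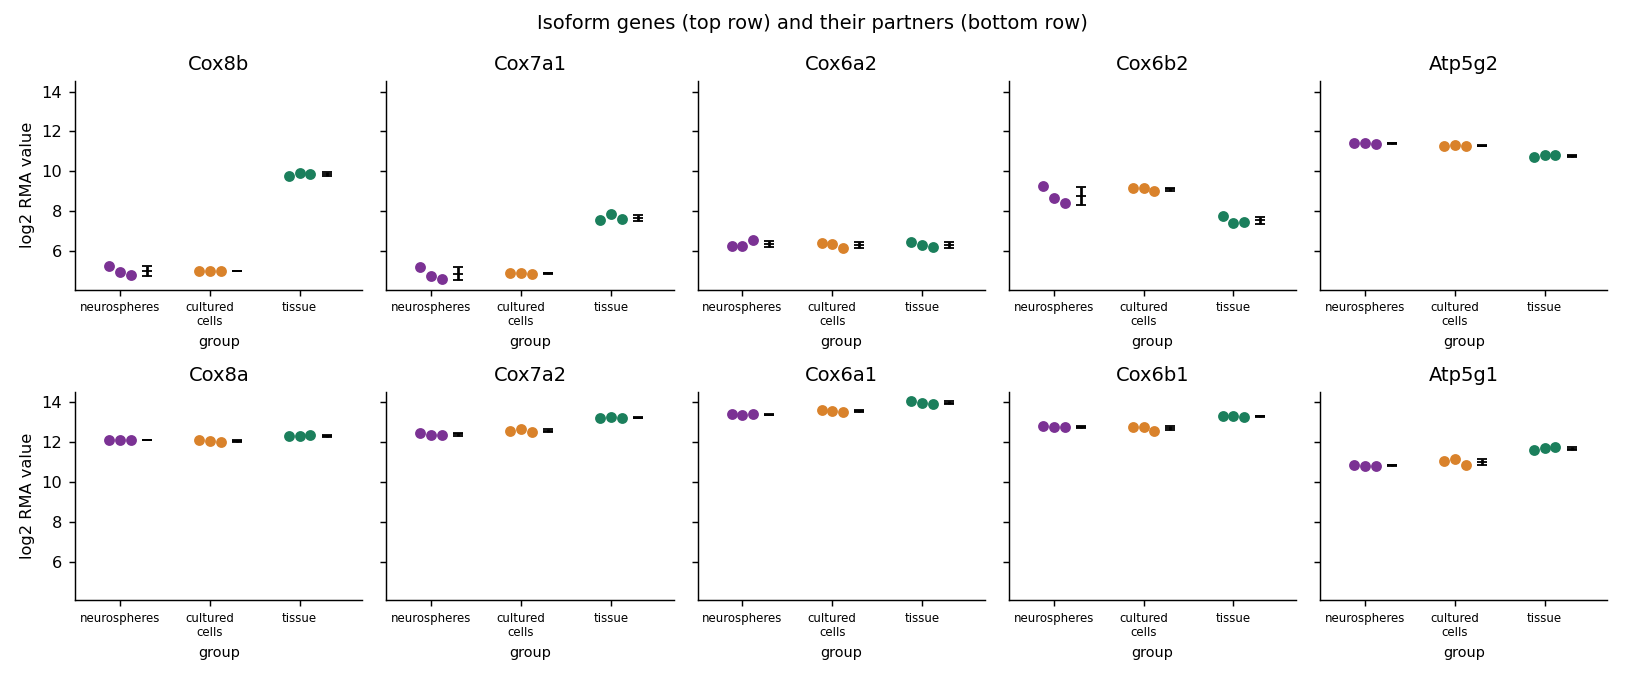
Log2 RMA values on each array for isoform genes (top) and their partners (bottom), with the mean and SD of each group (n = 3). Cox8b and Cox7a1 are high in tissue alone, Cox6a2 overlaps between the 3 groups, and Cox6b2 and Atp5g2 are lowest in tissue; heights compare groups within a panel, not panels.

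The promoters of the isoform pairs that moved apart are shown as the 250 bases before the annotated start, 5′ to 3′ on the strand of the gene (RefSeq, GRCm38.p6). They lie at chr7:140900447-140900696 (Cox8b, minus strand), chr19:7217617-7217866 (Cox8a, minus), chr7:30183921-30184170 (Cox7a1, plus), chr9:79759854-79760103 (Cox7a2, minus), chr7:4753095-4753344 (Cox6b2, minus) and chr7:30626115-30626364 (Cox6b1, minus). Capitals mark matches to the 6 motifs named below.
Cox8b: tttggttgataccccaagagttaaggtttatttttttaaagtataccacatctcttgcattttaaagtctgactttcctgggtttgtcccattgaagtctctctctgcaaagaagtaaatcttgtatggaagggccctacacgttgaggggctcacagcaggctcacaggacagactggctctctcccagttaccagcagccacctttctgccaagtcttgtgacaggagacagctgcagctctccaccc
Cox8a: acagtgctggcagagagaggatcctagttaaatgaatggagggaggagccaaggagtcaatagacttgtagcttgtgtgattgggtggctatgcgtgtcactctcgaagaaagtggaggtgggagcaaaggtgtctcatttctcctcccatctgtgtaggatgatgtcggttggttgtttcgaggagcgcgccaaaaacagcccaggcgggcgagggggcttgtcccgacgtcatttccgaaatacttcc
Cox7a1: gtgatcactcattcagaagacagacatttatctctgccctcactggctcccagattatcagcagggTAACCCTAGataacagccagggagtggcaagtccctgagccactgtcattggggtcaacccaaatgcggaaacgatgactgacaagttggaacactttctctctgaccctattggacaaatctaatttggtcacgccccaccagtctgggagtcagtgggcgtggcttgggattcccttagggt
Cox7a2: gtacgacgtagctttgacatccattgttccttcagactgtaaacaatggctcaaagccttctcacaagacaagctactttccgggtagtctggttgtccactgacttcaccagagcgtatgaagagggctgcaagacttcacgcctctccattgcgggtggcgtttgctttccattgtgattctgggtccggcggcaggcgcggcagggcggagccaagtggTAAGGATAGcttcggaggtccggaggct
Cox6b2: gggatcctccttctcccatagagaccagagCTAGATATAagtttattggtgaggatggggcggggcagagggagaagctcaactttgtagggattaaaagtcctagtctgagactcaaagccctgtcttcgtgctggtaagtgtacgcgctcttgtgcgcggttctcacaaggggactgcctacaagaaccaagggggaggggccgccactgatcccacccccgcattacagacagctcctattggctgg
Cox6b1: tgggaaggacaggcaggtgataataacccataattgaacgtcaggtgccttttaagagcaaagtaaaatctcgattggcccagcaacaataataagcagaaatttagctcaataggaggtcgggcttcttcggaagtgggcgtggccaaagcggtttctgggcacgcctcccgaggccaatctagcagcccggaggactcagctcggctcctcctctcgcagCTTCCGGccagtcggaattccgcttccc

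Motifs were searched on both strands as exact letters: GCGCNTGCG for NRF1 and CCGGAAG for ETS factors such as GABPA (both known as regulators of these genes), AAGATGGC for YY1, AAGGTCA for estrogen-related receptors, CTANNNNTA for MEF2 of muscle, and TATAAA for the TATA box, which can overlap the MEF2 letters. Cox8b and Cox8a held none of them. The capitals are MEF2 letters in Cox7a1, Cox7a2 and Cox6b2, which begin 184, 28 and 220 bases before the start, and ETS letters in Cox6b1 at 28 bases. The MEF2 letters are a loose pattern that takes any base at N. Each of the MEF2 stretches holds G or C there, and none was shown to be a MEF2 site. Of the 81 members, 66 had a window in the table. The NRF1 letters were in 15 of these 66 genes (22.7%) against 5.88% of the 27025 genes of the table, and the ETS letters in 12 (18.2%) against 7.83%. For the other motifs the shares were 1.52% and 1.83% (YY1), 7.58% and 4.70% (estrogen-related receptors), 15.2% and 21.4% (MEF2), and 10.6% and 14.3% (TATA). The median GC content was 57.0% in member windows and 52.4% over all genes. A match is a description of the letters and no measure of binding.

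The other complex IV subunits were lower or near tissue. Cox5a, which lies on the matrix side, was at 12.24, 12.18 and 12.29 in neurospheres, 12.22, 12.49 and 12.44 in cultured cells, and 13.30, 13.41 and 13.40 in tissue. No grown sample reached the tissue range, and the differences were -1.13 ± 0.08 and -0.99 ± 0.10 (SE; limma adjusted p = 3.85e-06 and 1.03e-05). All 3 probe sets of Cox5a gave falls, from -1.21 to -1.07 in neurospheres and from -1.04 to -0.89 in cultured cells. Cox5b fell by 0.75 and 0.80 and Ndufa4 by 0.63 in both, though in cultured cells Ndufa4 did not pass without replicate 3 (-0.58). Cox4i1, the common isoform of subunit 4, had -0.33 and -0.38 and did not pass. Its partner Cox4i2, known from lung, was at 5.56 in neurospheres, 5.36 in cultured cells and 5.35 in tissue. Cox7b2 (3.43, 3.40 and 3.64), Cox8c (7.73, 7.63 and 7.62) and Ndufa4l2 (6.43, 6.30 and 6.25) were likewise near each other in the 3 groups, and none passed.

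Cox7c was the other member that passed between the grown groups, on a probe set marked as possibly shared with other genes. It was at 9.15, 8.97 and 8.45 in neurospheres, 8.13, 8.24 and 8.19 in cultured cells, and 8.55, 8.13 and 8.84 in tissue. Neurospheres lay above cultured cells by 0.67 ± 0.17 (SE; limma adjusted p = 0.0143), and tissue overlapped both. Without neurosphere replicate 1 neither Cox7c (0.52) nor Ndufa6 (0.55) passed, and without cultured cell replicate 3 Ndufa6 (0.57) did not. The supercomplex factor Cox7a2l had a difference of 0.03 from tissue in neurospheres and -0.36 in cultured cells, and passed neither test.

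In complex V, the gene of the catalytic subunit overlapped with tissue in both grown groups. Atp5b, the catalytic beta subunit, was at 12.79, 12.63 and 12.61 in neurospheres, 12.80, 12.89 and 12.79 in cultured cells, and 12.77, 12.83 and 12.89 in tissue. Its differences from tissue were -0.15 ± 0.09 and -0.00 ± 0.08 (SE; limma adjusted p = 0.173 and 0.974). Atp5a1, the alpha subunit, had -0.07 and 0.08 on the probe set used, while a second bright probe set of the gene had -1.15 and -1.09. Atp5c1, the gamma subunit of the central stalk, had -0.41 and -0.57. Atp5d, the delta subunit, fell by 0.63 in neurospheres and had -0.58 in cultured cells on the probe set used. Its other bright probe set had 0.11 and 0.18. Atp5pb, a subunit of the peripheral stalk, fell by 0.68 in cultured cells on the brighter of its 2 probe sets. Atp5mpl, a small membrane subunit, fell by 0.60 and 0.78. In neurospheres Atp5mpl did not pass without neurosphere replicate 2 (-0.56), tissue replicate 1 or tissue replicate 2 (-0.58 each).

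The genes for the ring of c subunits moved apart. Atp5g1, Atp5g2 and Atp5g3 encode the same mature c subunit with different import signals. Atp5g2 was at 11.44, 11.41 and 11.35 in neurospheres, 11.28, 11.34 and 11.26 in cultured cells, and 10.72, 10.80 and 10.84 in tissue. Atp5g1 was at 10.88, 10.79 and 10.83 in neurospheres, 11.05, 11.17 and 10.87 in cultured cells, and 11.61, 11.69 and 11.75 in tissue. Both genes separated tissue from the grown groups, in opposite directions. Atp5g2 rose by 0.61 ± 0.08 in neurospheres (SE; limma adjusted p = 0.000186), with 0.51 in cultured cells, and it no longer passed without tissue replicate 1 (0.58). Atp5g1 fell by 0.85 ± 0.08 and 0.65 ± 0.10 (SE; limma adjusted p = 2.64e-05 and 0.000244), the second short of the threshold without cultured cell replicate 3 (-0.57). Atp5g3 had -0.44 and -0.34.

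The probe sets of 1 gene often gave different sizes of change. Of the members, 48 had more than 1 probe set, and 37 had at least 2 with a mean above 9, a cut-off chosen after seeing the data. Among these 37, the differences from tissue within a gene spanned a median of 0.42 in neurospheres and 0.59 in cultured cells, and 0.09 between neurospheres and cultured cells. They differed in sign for 5, 9 and 10 genes. Sdha, short of the threshold above, had -1.20 and -1.23 on another bright probe set, and the 2 other bright probe sets of Ndufv2 had -0.84 and -0.99 in neurospheres. In the other direction, Atp5h had -0.45 on the probe set used and 0.51 on the other in neurospheres, and Ndufs8 spanned -0.89 to 0.03. The dim probe sets of Ndufa12 and Ndufb8 rose by 0.96 and 1.87 in neurospheres, against the falls of the bright ones. The part of the place of a probe set along the transcript was not tested.

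Taken one by one, 56 of the 164 member probe sets fell and 9 rose in neurospheres, where 18.8% of all 34945 single-gene probe sets fell and 24.3% rose. In cultured cells 55 fell and 4 rose, where 19.7% of all fell and 24.0% rose. Between the grown groups, 7 of the 164 rose in neurospheres and 3 fell, among them a bright probe set of Uqcr10 that was not used (0.84). The share over all probe sets is not given for that comparison. Of the 124 with a mean above 9, 47 fell and 2 rose in neurospheres, where 17.2% of all 7489 such probe sets fell and 35.4% rose, and 46 fell and none rose in cultured cells, where 18.2% fell and 34.8% rose. By design class, the 47 bright member probe sets of the plain kind had a median of -0.28 in neurospheres (0.26 over all genes' probe sets of that kind), the 37 that match several transcripts of 1 gene -0.62 (0.33), and the 40 marked as shared between genes -0.49 (0.11).

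**Figure D4:**
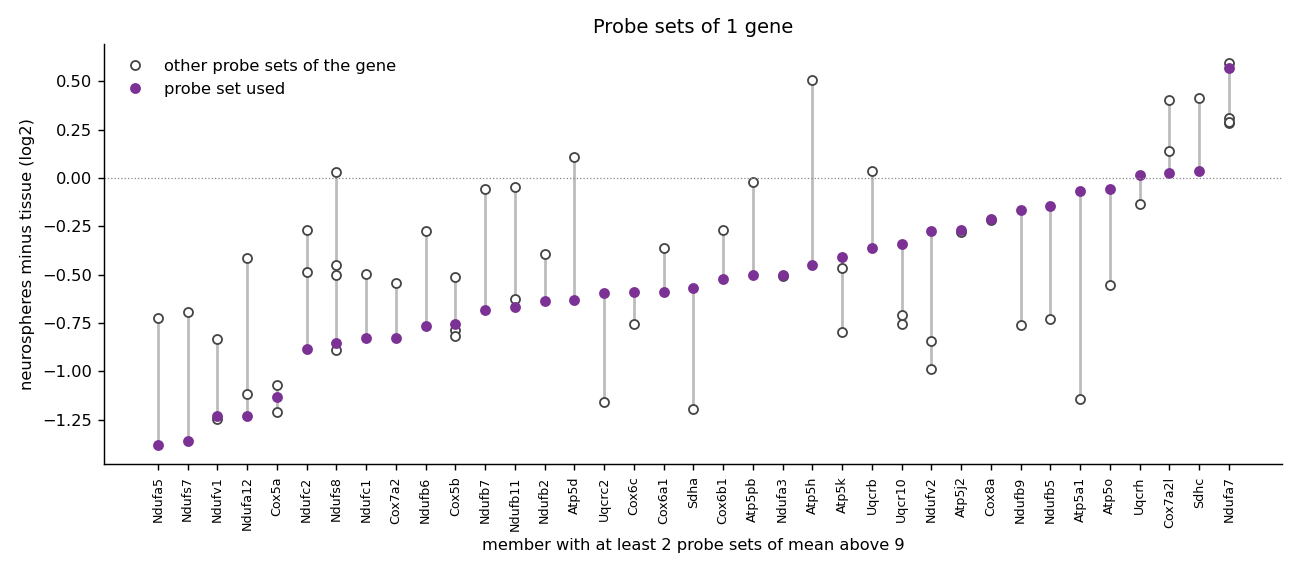
Neurospheres minus tissue (log2) for every probe set with a mean above 9 of the 37 members that have at least 2 of them, with the probe set used filled and the others open. Most genes keep the sign across their probe sets while the size differs, and 5 genes cross 0.

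Other genes of the pathway did not all follow the subunits. Counts in the lists from here on stand beside these shares over all genes. Against tissue, 21.7% rose and 21.0% fell in neurospheres, and 20.4% rose and 22.0% fell in cultured cells. ND5, a complex I subunit from mitochondrial DNA, was at 12.68, 12.63 and 12.64 in neurospheres, 12.63, 12.64 and 12.88 in cultured cells, and 13.18, 13.28 and 13.40 in tissue. Both grown groups lay below tissue. It fell by 0.64 in neurospheres (limma adjusted p = 0.000236), and its -0.57 in cultured cells was short of the fold threshold. Atpif1, the inhibitor of the ATP synthase, had -0.35 and -0.26, and Ndufab1, the acyl carrier protein in complex I, -0.37 in both. Of 8 electron, nucleotide and phosphate carriers, 1 rose and none fell in neurospheres and 2 rose and none fell in cultured cells. Cycs, cytochrome c, had -0.34 and -0.38, and Etfb, which brings electrons from fat oxidation, rose by 0.65 and 1.06.

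The assembly factors, which build the complexes and leave them, lay around 0. Of 14 for complex I, 2 rose and 3 fell in neurospheres and 1 rose and 2 fell in cultured cells, with medians of -0.06 and 0.15. Tmem126b rose by 1.62 and 1.64, and Ecsit fell by 1.04 and 0.85. Of 16 for complex IV, 2 rose and 4 fell in each, with medians of -0.06 and -0.17, and Cox17, a copper carrier, fell by 0.91 and 1.05. Of 14 for complexes II, III and V, 2 rose and 3 fell in neurospheres and 1 rose and 3 fell in cultured cells. Here Atpaf1, which helps to join the beta subunits of the ATP synthase, fell by 3.42 and 3.03, and Atpaf2, which does so for the alpha subunits, rose by 1.35 and 1.04.

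The citric acid cycle, which supplies the electrons, lay lower as the subunits did. Of 17 genes of pyruvate dehydrogenase and the cycle, 8 fell and 1 rose in neurospheres (median -0.58) and 6 fell and 2 rose in cultured cells (median -0.42). All 3 subunit genes of the NAD-dependent isocitrate dehydrogenase fell in both groups, Idh3a by 1.12 in neurospheres and 0.84 in cultured cells, Idh3b by 0.94 and 1.25, and Idh3g by 1.01 and 1.16. Idh2, the NADP-dependent enzyme of mitochondria, went the other way and rose by 1.61 and 2.02. Between the grown groups, neurospheres were lower in Pcx (pyruvate carboxylase), which fell by 1.08, and in Pdha1, which fell by 0.69.

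The ribosomes of the mitochondria, which translate the subunits encoded there, went the other way. Of 76 mitochondrial ribosomal protein genes, 25 rose and 1 fell in neurospheres (median 0.45) and 27 rose and 4 fell in cultured cells (median 0.40). Mrpl17 rose by 1.49 and 1.71, and Mrps7 by 1.36 and 1.31. Mrpl44 had the largest fall of the list, by 2.71 and 2.88. Of 23 genes of mitochondrial protein import, 7 rose and 4 fell in neurospheres and 5 rose and 5 fell in cultured cells. The shares in cultured cells (21.7% each) were near those over all genes. Tomm40, the channel of the outer membrane, was up by 1.47 and 1.64.

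Among 16 regulators of mitochondrial genes and of mitochondrial DNA, 3 rose and 4 fell in neurospheres and 5 rose and 4 fell in cultured cells. Ppargc1a, the coactivator PGC-1α that raises respiratory chain genes, had the largest difference, with means of 5.78 in neurospheres, 4.74 in cultured cells and 10.89 in tissue. It fell by 5.11 and 6.15, and neurospheres were above cultured cells by 1.04. Its relative Ppargc1b fell by 1.92 and 2.60, and Esrra, a receptor that works with them, by 0.63 and 1.06. Gabpa, whose letters were searched above, rose by 1.02 and 0.75, and Nrf1 rose by 0.72 in cultured cells, while neurospheres were near tissue (0.07) and fell by 0.65 against cultured cells. Tfam, which packs and transcribes mitochondrial DNA, had 0.29 and 0.08 and did not pass.

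**Figure D5:**
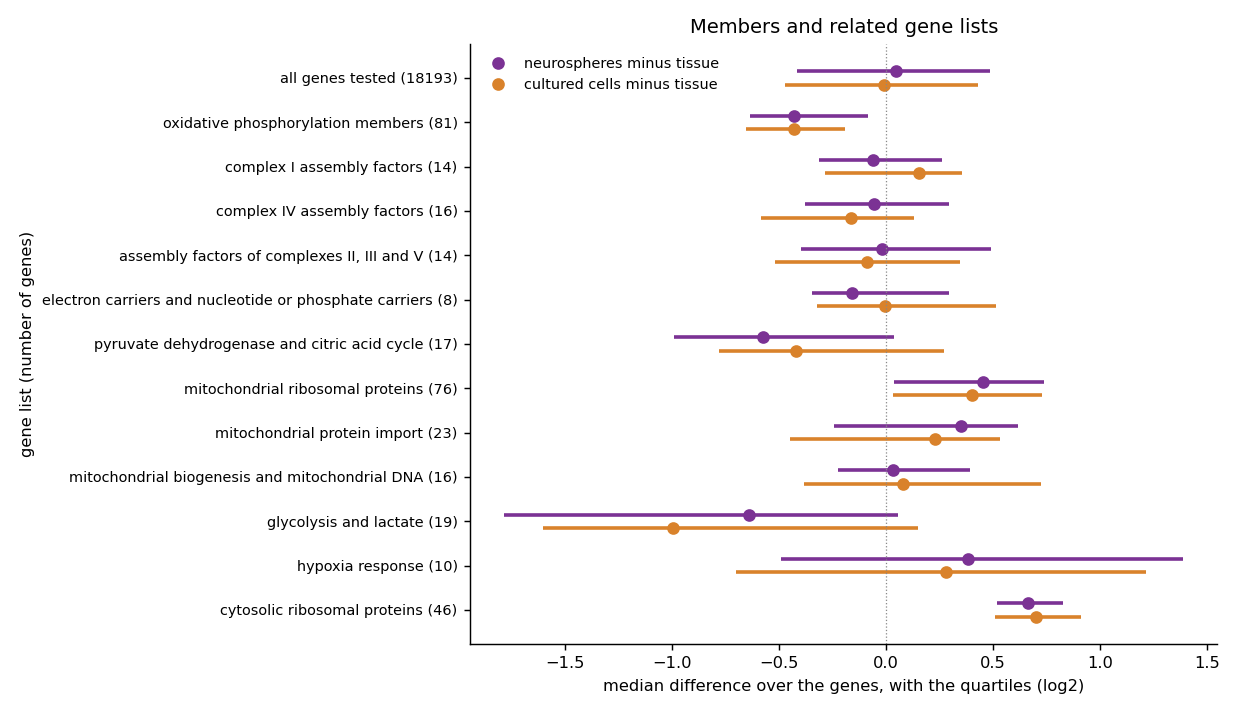
Median difference from tissue (log2, points) with the quartiles over genes (lines) for all genes tested, the members and 11 related lists, in neurospheres and in cultured cells. Members, the citric acid cycle and glycolysis lie below 0, and mitochondrial and cytosolic ribosomal proteins above it.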

How the data were processed

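Total RNA (100 ng a sample) had been labelled with the 3′ IVT Express kit and hybridised to Affymetrix mouse arrays that cover the transcriptome with short probes near 3′ ends. The table deposited holds log2 signals, which the authors made by RMA in Expression Console, per the labels, which also name MAS5 and give no versions. They were used as deposited, so RMA had already set the 9 arrays to a common distribution.

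Of 45101 probe sets, 34945 named 1 gene, and each of 18193 genes was read from the one with the highest mean. Tests across all genes were 2-sided and used lmFit and eBayes of limma 3.58.1 (R 4.3.3) on the 6 arrays of each comparison, with Benjamini-Hochberg adjustment. The alternatives, whose effect is given at the close, changed the centring, the probe set of a gene, the fit, the fold threshold and the arrays used. Summaries and figures used Python 3.11.15, pandas 2.3.3 and matplotlib 3.10.9. The study's methods name Student's test, which was run as an alternative. The fits were tested on simulated data. Members, lists, tests and alternatives were chosen with earlier results of these data known.

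Genes named were, per comparison, the 10 largest rises and falls among members that passed, isoform pairs, the core subunits, members against the rest of their complex, the gene that is no subunit, and up to 3 genes a direction from each other list. Genes outside the rule (Uqcrc2, Uqcr10, Uqcrb, Uqcrh, Atp5d, Atp5h, Atp5mpl, Atp5pb, Ndufa2, Ndufa7, Ndufs4, ND5, Atpif1, Ndufab1, Cycs, Tfam, Ckm and Ucp1) were chosen after their values were seen. Replicate numbers were not used to pair the samples in the main fits.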

Additional observations from a re-analysis of the deposited data

How the results depend on the processing

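Most values kept their direction and their side of the thresholds. The alternatives were other centrings of the arrays, other probe set rules, a filter on dim genes, all 9 arrays in 1 fit, another prior, other fold thresholds, the methods' t-test, symbols as annotated, a replicate block and each array left out. Centring on the hybridisation controls moved the median gene by 0.22 in cultured cells against tissue and by -0.20 in neurospheres against cultured cells. The cause of the changes below was not tested.

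In neurospheres against tissue, 5 members rose without probe sets marked as shared and 5 without a fold threshold, and 1 above 2-fold, while 53 fell without a fold threshold and 10 above 2-fold. Leaving out 1 array gave 2 to 4 rises and 25 to 28 falls. In cultured cells against tissue, 4 rose and 12 fell with centring on the hybridisation controls, 2 rose without shared probe sets, 7 rose and 58 fell without a fold threshold, and 9 fell above 2-fold. Leaving out 1 array gave 1 to 2 rises and 21 to 27 falls. In neurospheres against cultured cells, 0 rose with the hybridisation controls or above 2-fold, 1 rose by the methods' t-test after Benjamini-Hochberg, 7 rose and 2 fell without a fold threshold, 1 fell without shared probe sets, and leaving out 1 array gave 1 to 3 rises. The F test passed 42 members with the hybridisation controls and 60 to 69 with 1 array left out. Shares over all genes under these alternatives are not given beside these counts.

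The medians of complexes I to V in neurospheres against tissue were -0.67, -0.18, -0.34, -0.52 and -0.50 when arrays were centred on the more highly expressed genes, and -0.45, -0.13, -0.16, -0.35 and -0.31 with the probe sets of a gene averaged. Complex V had -0.28 without shared probe sets. In cultured cells against tissue they were -0.31, 0.003, -0.023, -0.13 and -0.21 with the hybridisation controls, and -0.61, -0.30 and -0.43 for complexes I, II and IV with the more highly expressed genes. Complex V had -0.32 with averaged probe sets and -0.34 without shared ones, and complex IV -0.40 to -0.35 with 1 array left out. In neurospheres against cultured cells they were -0.16, -0.14, -0.15, -0.16 and -0.17 with the hybridisation controls, and complex I had -0.043 to 0.070 with 1 array left out.

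Single genes changed sign in neurospheres against tissue as follows. With averaged probe sets, Atp5h had 0.026, Cox6a2 -0.073, Ndufb8 0.42, Ndufs4 -0.37, Sdhd -0.066 and Uqcrh -0.061. With the more highly expressed genes, Cox6a2 had -0.054, Cox7a2l -0.068, Sdhc -0.061 and Uqcrh -0.080. Without shared probe sets, Ndufa12 had 0.96 and Uqcrh -0.14. With 1 array left out, Atp5o had -0.21 to 0.045, Cox6a2 -0.058 to 0.12, Sdhc -0.011 to 0.064 and Uqcrh -0.032 to 0.049. In cultured cells against tissue, averaging gave Atp5a1 -0.32, Atp5o -0.16, Cox6a2 0.037, Cox7c 0.043, Cox8c -0.091, Ndufb8 0.35, Ndufs4 -0.039, Sdhc 0.10 and Sdhd -0.088. The hybridisation controls gave Atp5b 0.22, Cox6a2 0.21, Sdhc 0.10, Uqcrc1 0.048 and Uqcrfs1 0.029, and the more highly expressed genes gave Atp5a1 -0.0032, Cox4i2 -0.072, Cox8c -0.074 and Ndufa4l2 -0.028. Without shared probe sets, Atp5pb had 0.0084, Cox7c 0.41 and Ndufa12 1.93. With 1 array left out, Atp5b had -0.035 to 0.027, Cox4i2 -0.060 to 0.11, Cox6a2 -0.077 to 0.066, Cox8c -0.031 to 0.075 and Ndufa4l2 -0.059 to 0.14.

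The rise of Atp5g2 in neurospheres was lost when arrays were centred on the more highly expressed genes (0.52), and the falls of Ndufa12 and Ndufb8 rest on their bright probe sets. Correlations of same-numbered deviations were between -0.19 and 0.21. In cultured cells against tissue they were 0.07 to 0.21, and -0.17 to 0.08 for unlike numbers, so pairing by number remains unsettled there. A replicate block gave 3 rises and 28 falls in neurospheres against tissue, 1 and 26 in cultured cells against tissue, 2 and 0 between the grown groups, and 64 by the F test. The number of arrays limits the precision.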

Other observations

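Of 46 cytosolic ribosomal protein genes, 31 rose and none fell in neurospheres against tissue (median 0.66), and 34 rose and none fell in cultured cells against tissue (median 0.70). Rpl12 rose by 1.62 in neurospheres, and Rps19 by 1.58 and 1.64. Of 19 genes of glycolysis and lactate, 4 rose and 11 fell in neurospheres (median -0.64) and 2 rose and 12 fell in cultured cells (median -1.0). Ldha, the lactate dehydrogenase subunit that favours lactate, rose by 2.06 and 2.04, and Hk2, a hexokinase, by 1.18 and 1.09. The isoforms known from brain moved most in the other direction, with falls of 4.60 and 5.57 in Aldoc, 3.91 and 4.83 in Eno2, and 3.05 and 3.69 in Slc2a3. Between the grown groups, 6 of the 19 rose in neurospheres against cultured cells and none fell, where 9.0% of all genes rose and 8.91% fell.

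Of 10 genes of the hypoxia response, 4 rose and 2 fell in neurospheres and 4 rose and 3 fell in cultured cells. The share that fell in neurospheres (20.0%) was near that over all genes (21.0%). Vegfa, a growth factor of blood vessels, rose by 2.69 and 1.41, Adm, a peptide that widens vessels, by 1.55 and 5.25, and Egln3, an oxygen sensor, fell by 1.67 and 1.45. Subunit genes read only from probe sets that also name a second gene gave -0.51 and -0.36 for Ndufa11, with means of 11.03 in neurospheres, 11.18 in cultured cells and 11.54 in tissue, and -0.63 and -0.59 for Ndufs6, with means of 10.59, 10.63 and 11.22. They were not tested with the members.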
